A study of Mus musculus with 6 samples.

Results

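Aminoacyl-tRNA synthetases are the enzymes that attach each amino acid to its transfer RNA (tRNA), and their 38 protein-coding genes are described here in mouse cerebral cortex. The genes were chosen by name, as protein-coding rows whose symbol is a capital letter followed by ars or ars2, together with Eprs, Farsa, Farsb and Tarsl2. They make up 38 of 54532 rows in the table, and the deposited description of all 38 names a tRNA synthetase. Of these, 21 encode cytosolic enzymes, among them 2, Gars and Kars, whose products also serve mitochondria, and 17 encode enzymes of mitochondria only.

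RNA was sequenced from the cortex of wild-type (WT) mice and of Fam69c knockout (Fam69c-/-) mice, both aged 12 months, with 3 libraries per genotype. Fam69c encodes a kinase-like protein of the secretory pathway, and the series title places it in stress granule assembly and inflammasome activation. Strain, sex and the design of the knockout allele were not stated in the labels, nor was it stated that each library came from its own mouse, so p-values measure the spread between libraries, which may be technical. From 30935326 to 35065884 reads per library were recovered from the values. The table gives FPKM, reads per kilobase of gene length, scaled to the size of the library. Fam69c RNA was present in every library, at 1.89 ± 0.285 FPKM in WT and 1.60 ± 0.216 FPKM in the other group (SD, n = 3 each) with overlapping groups, so it does not check the labels and the second group is called "labelled knockout" throughout.

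Protein synthesis depends on these enzymes because the ribosome reads the tRNA and not the amino acid it carries. Cytosolic enzymes charge the tRNAs used for nuclear messages, while a separate set, encoded in the nucleus and imported, charges the tRNAs of the mitochondrial genome. Several cytosolic enzymes are held in the multisynthetase complex on scaffold proteins. Uncharged tRNA activates the kinase GCN2 (Eif2ak4), which phosphorylates eIF2α and raises translation of the transcription factor ATF4, and ATF4 in turn induces many cytosolic synthetase genes. Inherited defects in cytosolic members such as GARS, YARS and AARS cause peripheral neuropathy, and defects in mitochondrial members such as EARS2 cause leukoencephalopathy.

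The DNA element bound by ATF4 with C/EBP partners was looked for first, since it is the best-known regulatory sequence of this family. Promoters from RefSeq on GRCm38.p6, spanning 250 bases before to 50 bases after the start site, were matched for 28 of the 38 genes. The core TTGCATCA was searched on both strands, as TTGCATCA or its reverse complement TGATGCAA. It was found in 4 genes, Iars, Tars and Yars among them, all within the 8 matched members that are listed as ATF4 targets, and in 0 of the 20 other matched members. Of all 32851 promoters of this length 0.895% held it, and of all 27025 genes with such a promoter 1.03% did. For Iars, Tars and Yars, whose promoters hold the match, the window of 30 bases around it is shown. The window is on the gene's strand, 5′ to 3′, with the match in capitals.
Iars, chr13:49682126-49682155, plus strand: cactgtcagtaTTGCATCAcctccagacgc
Tars, chr15:11399655-11399684, minus strand: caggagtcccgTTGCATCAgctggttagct
Yars, chr4:129189895-129189924, plus strand: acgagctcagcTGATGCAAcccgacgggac
In Tars the match lay at bases -15 to -8 from the start site, while in Iars and Yars it lay just inside the transcript, at bases 8 to 15 and 4 to 11. A match is a run of letters and was not tested as a binding site. The levels of these 3 genes are given below with the other ATF4 targets.

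The family was expressed throughout, and its members spanned a wide range. Mean levels over the 6 libraries ran from 1.06 FPKM for Wars2, the mitochondrial tryptophanyl enzyme, to 71.4 FPKM for Nars, the cytosolic asparaginyl enzyme. All 38 passed the filter of a mean of 0.5 FPKM, and each was covered by 176 to 6582 reads in a library. Together they took between 0.201% and 0.210% of the reads in each library. Wars2 still lay above 46.8% of the protein-coding rows, and 5 members were among the top 10% of such rows. In FPKM the highest members were Nars, Hars and Gars. Nars and Hars have deposited lengths of 2632 and 1987 bases, below their merged exons of 4355 and 2447 bases in GENCODE M21. Their FPKM is thus not on the same length basis as that of Gars. By reads per kilobase of the longest coding transcript Sars took place 1, Nars 2, Wars 3, Gars 4 and Hars 5. The 3 highest members by FPKM held 33.2% of the summed FPKM of the family. That sum was 464, 470.4 and 455 FPKM in WT replicates 1, 2 and 3 and 475, 442 and 451 FPKM in replicates 1, 2 and 3 labelled knockout, so the family total overlapped between the groups.

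**Figure D1:**
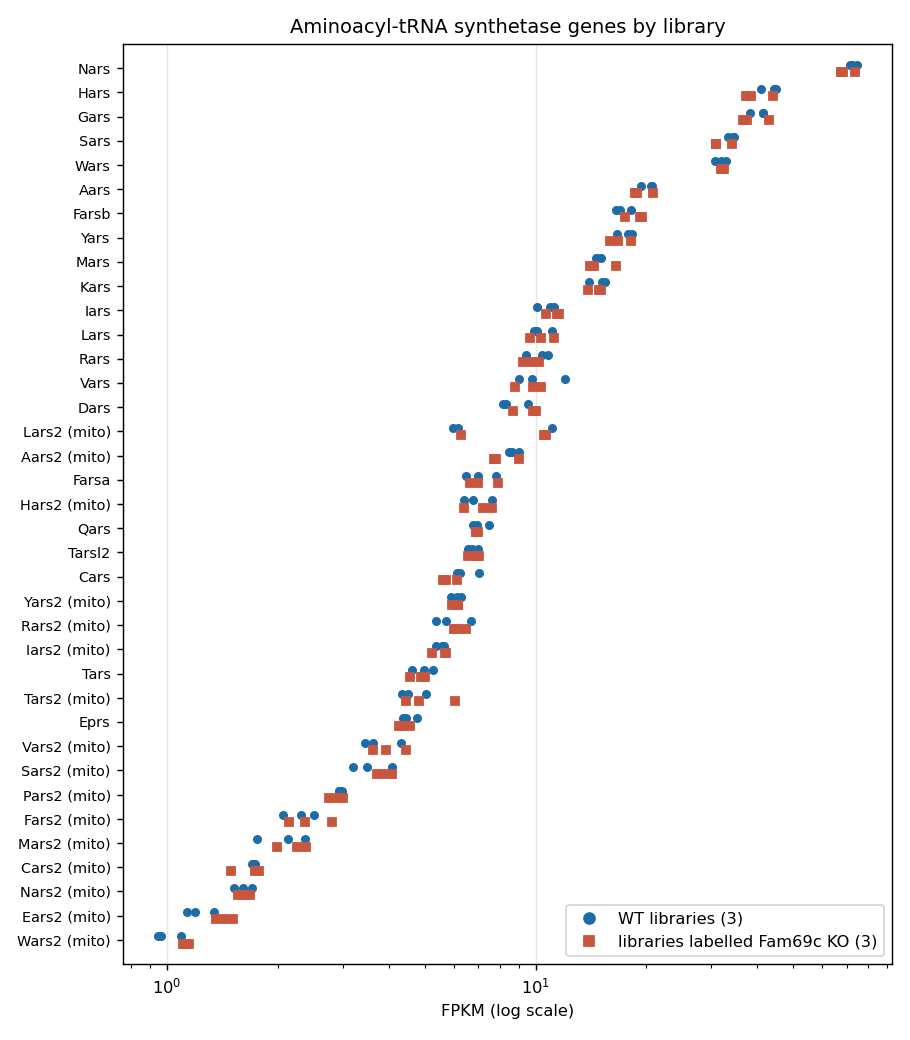
FPKM (log axis) of 37 synthetase genes in 3 WT libraries (circles) and 3 libraries labelled knockout (squares), ordered by mean level, with mitochondrial enzymes marked. The points of a gene lie close together, from Nars at 71.4 FPKM to Wars2 at 1.06 FPKM, apart from Lars2, whose libraries fall into a low and a high set.

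Among cytosolic enzymes outside the multisynthetase complex, Nars (mm10 chromosome 18, 64499665 to 64516557) read 72.3, 74.8 and 71.5 FPKM in WT replicates 1, 2 and 3 and 73.8, 67.3 and 68.5 FPKM in replicates 1, 2 and 3 labelled knockout. Hars, the histidyl enzyme (chromosome 18, 36766530 to 36783205), read 44.9, 44.3 and 40.8 FPKM in WT and 44.1, 37.2 and 38.3 FPKM labelled knockout. Gars, the glycyl enzyme (chromosome 6, 55038007 to 55079500), read 41.3, 41.3 and 38.2 FPKM in WT and 43.0, 37.4 and 36.5 FPKM labelled knockout. In all 3 genes replicate 1 labelled knockout stood with WT and replicates 2 and 3 labelled knockout held the lowest values, so the groups overlapped. Sars, the seryl enzyme, averaged 33.0 FPKM, Wars, the tryptophanyl enzyme that interferon-γ induces in other settings, 31.9 FPKM, and Aars, the alanyl enzyme, 19.8 FPKM. Yars, the tyrosyl enzyme, averaged 17.3 FPKM, Vars, the valyl enzyme, 9.97 FPKM, and Cars, the cysteinyl enzyme, 6.14 FPKM.

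The phenylalanyl enzyme is a tetramer of paired α and β subunits, encoded by Farsa and Farsb. Farsa (chromosome 8, 84856989 to 84869257) read 6.98, 6.48 and 7.83 FPKM in WT and 6.98, 6.65 and 7.90 FPKM labelled knockout. Farsb (chromosome 1, 78417975 to 78488897) read 16.9, 18.1 and 16.6 FPKM in WT and 19.4, 17.5 and 19.3 FPKM labelled knockout. The β subunit gene was thus the higher in every library, with a Farsb to Farsa ratio of FPKM of 2.45 ± 0.339 in WT and 2.62 ± 0.172 labelled knockout (SD, n = 3 each). The deposited length of Farsa is 2.48 times that of its longest coding transcript, and on mean reads per kilobase of that transcript the ratio was 1.302.

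Threonine has a pair of cytosolic genes, Tars and its relative Tarsl2. Tars (chromosome 15, 11382301 to 11399665) read 4.996, 5.26 and 4.63 FPKM in WT and 4.89, 5.01 and 4.55 FPKM labelled knockout. Tarsl2 (chromosome 7, 65644898 to 65692091) read 6.97, 6.70 and 6.54 FPKM in WT and 7.02, 6.95 and 6.54 FPKM labelled knockout. Tarsl2 was the higher in all 6 libraries, with a Tars to Tarsl2 ratio of FPKM of 0.737 ± 0.0419 in WT and 0.704 ± 0.0145 labelled knockout (SD, n = 3 each), and 0.502 per kilobase of coding transcript. The longest run of identical bases shared by any transcripts of the pair was 31 bases in GENCODE M21.

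The multisynthetase complex holds 8 of the measured enzymes, with mean levels from 4.46 to 14.9 FPKM. Their summed level was 81.3, 83.5 and 78.9 FPKM in WT and 83.9, 78.8 and 83.0 FPKM labelled knockout, so the groups overlapped. Mars, the methionyl enzyme, averaged 14.9 FPKM and Kars, the lysyl enzyme, 14.7 FPKM, followed by Iars (isoleucyl) at 11 FPKM, Lars (leucyl) at 10.4 FPKM, Rars (arginyl) at 9.997 FPKM and Dars (aspartyl) at 9.09 FPKM. Qars (glutaminyl) averaged 6.995 FPKM and Eprs, whose protein joins the glutamyl and prolyl enzymes in a single chain, 4.46 FPKM. Kars (chromosome 8, 111993443 to 112011323) read 15.4, 15.1 and 14.0 FPKM in WT and 15.0, 13.9 and 14.9 FPKM labelled knockout. Eprs (chromosome 1, 185363044 to 185428360) read 4.38, 4.76 and 4.45 FPKM in WT and 4.57, 4.36 and 4.27 FPKM labelled knockout. Both genes overlapped between the groups. Eprs was the lowest cytosolic member in FPKM, at place 28 of 38, but its deposited length of 18102 bases is 3.69 times that of its longest coding transcript, and per kilobase of that transcript it took place 14. The 3 scaffold genes of the complex lay in the same band, with Aimp1 at 6.64 ± 0.322 FPKM in WT and 6.37 ± 0.0250 FPKM labelled knockout, Aimp2 at 7.15 ± 0.346 and 6.99 ± 0.488 FPKM, and Eef1e1 at 5.06 ± 0.399 and 4.81 ± 0.320 FPKM (SD, n = 3 each).

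Mitochondrial enzymes were lower as a group, with a median of mean levels of 3.74 FPKM against 11 FPKM for the cytosolic ones. Per kilobase of coding transcript the medians were 213 and 587 reads. All 12 members above 10 FPKM were cytosolic. The highest mitochondrial members were Lars2 (leucyl) at 8.46 FPKM, Aars2 (alanyl) at 8.45 FPKM, Hars2 (histidyl) at 7.001 FPKM, Yars2 (tyrosyl) at 6.08 FPKM and Rars2 (arginyl) at 6.07 FPKM. Iars2 (isoleucyl) averaged 5.54 FPKM, Tars2 (threonyl) 4.87 FPKM, Vars2 (valyl) 3.90 FPKM, Sars2 (seryl) 3.74 FPKM and Pars2 (prolyl) 2.92 FPKM. At the low end stood Fars2 (phenylalanyl) at 2.37 FPKM, Mars2 (methionyl) at 2.15 FPKM, Cars2 (cysteinyl) at 1.69 FPKM, Nars2 (asparaginyl) at 1.62 FPKM, Ears2 (glutamyl) at 1.33 FPKM and Wars2. Mitochondria make glutaminyl-tRNA by another route, through an amidotransferase, and its genes Gatb, Gatc and Qrsl1 were all expressed, with Gatb at 3.77 ± 0.231 FPKM in WT and 3.53 ± 0.0258 FPKM labelled knockout (SD, n = 3 each).

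Where a cytosolic gene has a mitochondrial counterpart, the 2 were compared within the same library, in 18 pairs. Gars, Kars and Qars have none, while Farsa and Farsb were each set against Fars2, and Eprs against Ears2 and Pars2. The cytosolic gene was the higher in all 6 libraries in 16 pairs. In FPKM the widest gap was for asparagine, with a Nars to Nars2 ratio of 45.3 ± 2.40 in WT and 43.2 ± 3.63 labelled knockout. Tryptophan followed, with Wars to Wars2 at 31.9 ± 3.39 and 28.6 ± 0.532 (SD, n = 3 each). Per kilobase of coding transcript the order was the reverse, at 22.9 for Nars to Nars2 and 42.0 for Wars to Wars2. These pairs bring together the abundant cytosolic enzymes and the scarcest mitochondrial ones. The exceptions were leucine and threonine, each with the cytosolic gene higher in 4 of 6 libraries. Tars to Tars2 was 1.08 ± 0.1499 in WT and 0.964 ± 0.185 labelled knockout, and Lars to Lars2 was 1.43 ± 0.376 and 1.20 ± 0.389. Per kilobase of coding transcript these 2 pairs were below 1, at 0.509 and 0.419, and the other 16 stayed above it.

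**Figure D2:**
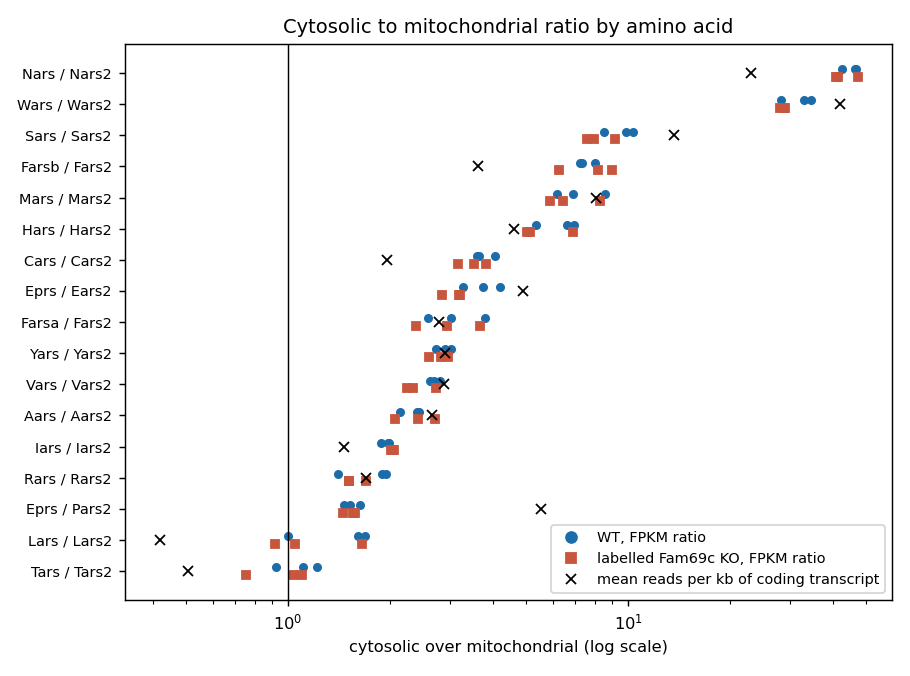
Ratio of the cytosolic to the mitochondrial gene (log axis) for 17 of 18 pairs, as FPKM in each WT library (circles) and each library labelled knockout (squares), and from mean reads per kilobase of the longest coding transcript (crosses). The leucine and threonine pairs lie on both sides of 1, while in every other pair drawn all libraries lie above 1, from asparagine at 45.3 in WT downward.

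Hars and Hars2 stand head to head on chromosome 18, on opposite strands, and their deposited positions share 198 bases. Hars2 (36783008 to 36792562) read 6.78, 6.40 and 7.60 FPKM in WT and 6.39, 7.22 and 7.61 FPKM labelled knockout, so it was highest in replicate 3 of both groups. Hars was 6.31 ± 0.820 times as high in WT and 5.69 ± 1.05 times labelled knockout (SD, n = 3 each), and 4.61 times per kilobase of coding transcript. Their transcripts share a longest run of 26 identical bases, the largest among the 18 pairs. The sources used here do not say that counting used strand, so reads from the shared bases cannot be assigned to either gene. In all, 15 members share exon bases with another gene in GENCODE M21, among them Iars2, with 2034 bases (22.9% of its exons) on the strand opposite Rab3gap2, and Aars, with 1326 bases (14.3%) shared with Exosc6 on its own strand. Farsb shares 9.47% of its exons with Sgpp2 on the other strand. The cytosolic Eprs and the mitochondrial Iars2 lie 33.7 kb apart on chromosome 1. Nars, Lars, Hars and Hars2 lie on the chromosome of Fam69c, 20.2 to 47.9 Mb from it.

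The comparison of the groups asked which synthetase genes differed with the Fam69c genotype as labelled, and no member passed the test. Over all 15694 genes that reached a mean of 0.5 FPKM, limma on log2(FPKM + 0.5) called 0 genes at an adjusted p of 0.05, 0% of those tested, and 599 (3.82%) at an unadjusted p under 0.05 (1.63% higher and 2.19% lower). With voom, also in limma, on reads recovered from the values, 0 genes passed and 533 were under that unadjusted level. Among the 38 members 0 passed in either direction and 0 were under the unadjusted level, and the adjusted p of each was 0.999 (limma, Benjamini-Hochberg). Without replicate 1 labelled knockout the count of members under the unadjusted level was 2, Hars and Sars, beside 901 of all 15694 genes tested. It was 7 without that library and WT replicate 3 together, beside 2092 of all genes tested. Those 7 were Nars, Hars, Gars, Sars, Aars and Yars on the lower side, from -0.11 to -0.24 in log2 fold change, and Sars2 at 0.22 on the higher side, and 0 of them passed. In the direction of the estimates, 20 members were above 0 and 18 below, where 48% of all genes tested were above 0. The median log2 fold change was 0.0052 over the members and -0.0042 over all genes tested. Estimates ran from -0.14 for Cars to 0.25 for Lars2, and the median half-width of the 95% intervals was 0.17 log2 units, against 0.21 over all genes tested. In RNA from whole tissue, fewer cells of a type and less RNA per cell cannot be told apart.

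**Figure D3:**
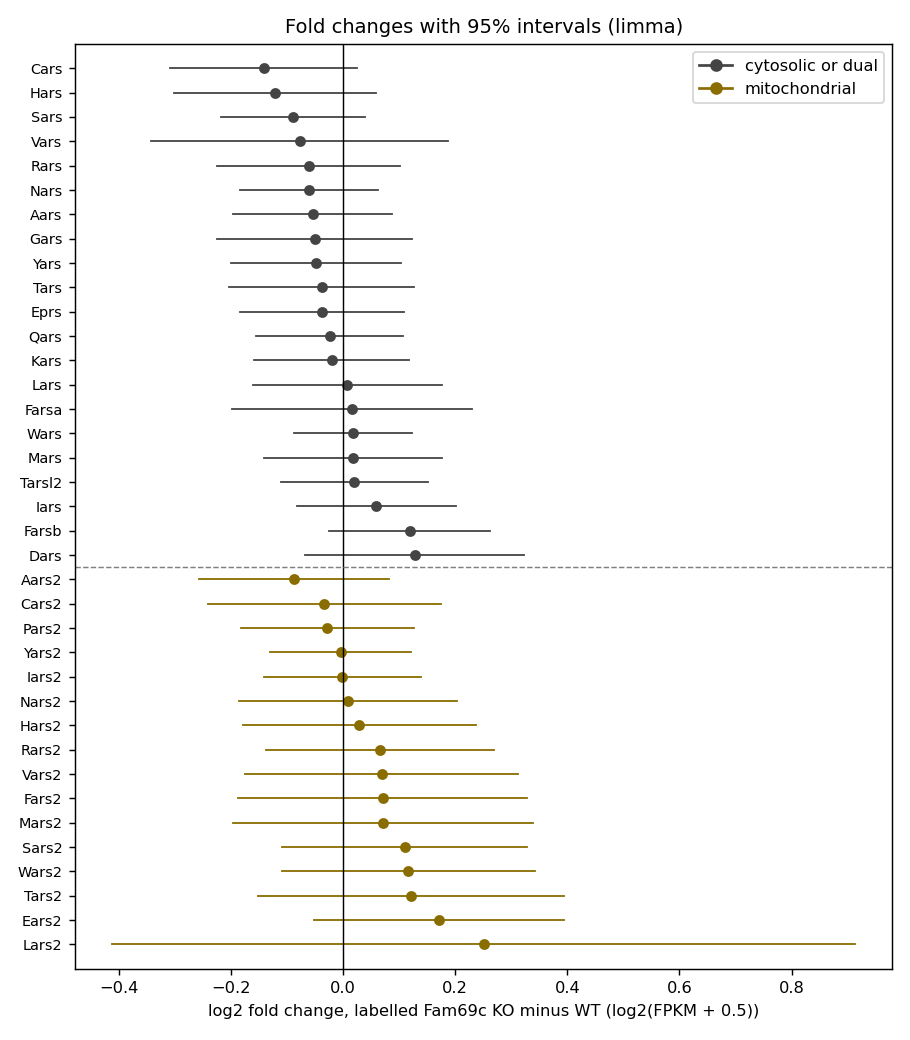
Log2 fold change on the log2(FPKM + 0.5) scale, labelled knockout minus WT, with its 95% interval from limma for each of 37 members, cytosolic above and mitochondrial below the dashed line. Every interval includes 0, and the widest belongs to Lars2.

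The groups did not overlap for 3 members, of which 2 had higher and 1 had lower values under the knockout label. Over all genes tested the groups were apart for 8.87% (4.17% higher and 4.7% lower). Cars, the cytosolic cysteinyl enzyme (chromosome 7, 143557230 to 143600090), read 6.25, 6.14 and 7.03 FPKM in WT and 5.71, 5.60 and 6.13 FPKM labelled knockout, which came to -0.14 in log2 fold change (95% interval -0.31 to 0.03; limma adjusted p = 0.999). Its separation was narrow, since WT replicate 2 and replicate 3 labelled knockout almost met. Ears2, which charges glutamate in mitochondria (chromosome 7, 122037213 to 122067263), read 1.34, 1.13 and 1.19 FPKM in WT and 1.44, 1.36 and 1.51 FPKM labelled knockout, which came to 0.17 in log2 fold change (95% interval -0.05 to 0.39; limma adjusted p = 0.999). Wars2, which charges tryptophan there (chromosome 3, 99141068 to 99239186), read 0.947, 0.964 and 1.09 FPKM in WT and 1.13, 1.14 and 1.103 FPKM labelled knockout, which came to 0.12 in log2 fold change (95% interval -0.11 to 0.34). Wars2 and Ears2 are the 2 members with the fewest reads, 176 to 278 in a library.

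The other members with the smallest p in each direction overlapped between the groups. On the higher side, Farsb, whose values stand above, had a log2 fold change of 0.12 (95% interval -0.02 to 0.26). Dars (chromosome 1, 128363707 to 128417368) read 8.32, 9.54 and 8.15 FPKM in WT and 10.01, 9.85 and 8.68 FPKM labelled knockout, which came to 0.13 in log2 fold change (95% interval -0.07 to 0.32). In Dars only WT replicate 2 came above the lowest library labelled knockout. On the lower side, Sars (chromosome 3, 108424865 to 108445209) read 34.3, 33.3 and 34.6 FPKM in WT and 34.1, 31.0 and 30.9 FPKM labelled knockout, which came to -0.09 in log2 fold change (95% interval -0.22 to 0.04). Hars had a log2 fold change of -0.12 (95% interval -0.30 to 0.06). Aars2, the mitochondrial alanyl enzyme (chromosome 17, 45506841 to 45520843), read 8.63, 8.49 and 9.04 FPKM in WT and 7.71, 7.82 and 9.03 FPKM labelled knockout, which came to -0.09 in log2 fold change (95% interval -0.26 to 0.08). Replicate 3 labelled knockout stood with the highest WT library there. Nars2, the third lowest member by level (chromosome 7, 96951505 to 97064758), read 1.70, 1.61 and 1.52 FPKM in WT and 1.56, 1.63 and 1.68 FPKM labelled knockout, which came to 0.0077 in log2 fold change (95% interval -0.19 to 0.20).

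By compartment, 8 of 21 cytosolic members were above 0 and 13 below, with a median log2 fold change of -0.04, and 12 of 17 mitochondrial members were above 0 and 5 below, with a median of 0.07. Single libraries bear on this contrast. The median of the mitochondrial members minus that of the cytosolic ones, each gene taken relative to its own mean over the 6 libraries, was -0.05, -0.06 and 0.07 log2 units in WT replicates 1, 2 and 3 and -0.05, 0.11 and 0.06 labelled knockout. WT replicate 3 therefore stood with replicates 2 and 3 labelled knockout, and replicate 1 labelled knockout with WT replicates 1 and 2, so the groups overlapped. Leaving out WT replicate 3 or replicate 3 labelled knockout brought the mitochondrial median to 0.01, and leaving out WT replicate 2 or replicate 2 labelled knockout brought it to 0.02. By class of catalytic domain, 10 of 19 class I and 10 of 19 class II members were above 0.

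WT replicate 3 and replicate 1 labelled knockout, the libraries that changed sides, also had the lowest levels of striatum genes, which mark tissue next to the cortex. Their mitochondrial minus cytosolic values were of opposite sign, 0.07 in WT replicate 3 and -0.05 in replicate 1 labelled knockout. The summed level of 8 striatum markers was 419, 428 and 145 FPKM in WT and 199, 380 and 329 FPKM labelled knockout, and no library had any of the 8 at 0. Markers of cortical excitatory neurons were present in all libraries, at 798 to 842 FPKM summed over 5 genes. Oligodendrocyte markers (4 genes) summed to 517, 572 and 441 FPKM in WT and 566, 444 and 466 FPKM labelled knockout. Those of inhibitory neurons (5 genes) gave 421, 406 and 389, and 432, 386 and 358 FPKM. Astrocyte markers (4 genes) gave 337, 310 and 284, and 326, 290 and 280 FPKM. Each of these sums was higher wherever the mitochondrial minus cytosolic value was negative than wherever it was positive. The other marker lists did not split that way, with microglia at 37.6 to 45.9 FPKM over 4 genes. The part of cell composition in the contrast was not tested. The 4 choroid plexus markers summed to 2.76, 3.76 and 3.35 FPKM in WT and 9.55, 8.16 and 3.95 FPKM labelled knockout, so the groups did not overlap. Most of that sum was Ttr, at 2.67 ± 0.512 FPKM in WT and 6.66 ± 2.81 FPKM labelled knockout (SD, n = 3 each). Ttr, named after its values were seen, had a log2 fold change of 1.1 (limma unadjusted p = 0.0101, adjusted p = 0.999). The other markers of that list, Folr1, Kl and Kcne2, had slightly lower means labelled knockout, with overlapping groups. They lay below the filter of 0.5 FPKM and were not tested, so the higher sum rested on Ttr. No marker of these lists was at 0, and the part of choroid plexus tissue in the synthetase values was not tested. Base composition also moved with the libraries. Across the 38 members the GC content of the longest coding transcript, from 38.8% to 60.8%, had a Spearman correlation with the deviation of a member of 0.44 in WT replicate 3 and 0.29 in replicate 3 labelled knockout, and of -0.40 in WT replicate 2 and -0.42 in replicate 1 labelled knockout. It was -0.04 in WT replicate 1 and -0.17 in replicate 2 labelled knockout, the library with the highest mitochondrial minus cytosolic value. These are descriptions across genes of the same libraries, and the part of base composition in the contrast was not tested. With the mean log2 level of the striatum genes as a covariate, added after the data were seen, 0 members passed. The cytosolic median was then -0.04 and the mitochondrial median 0.07. The striatum genes had a median log2 fold change of 0.04, with a low library in each group. A covariate so close to balanced could move these medians little, so the fit cannot show the part of striatum tissue.

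**Figure D4:**
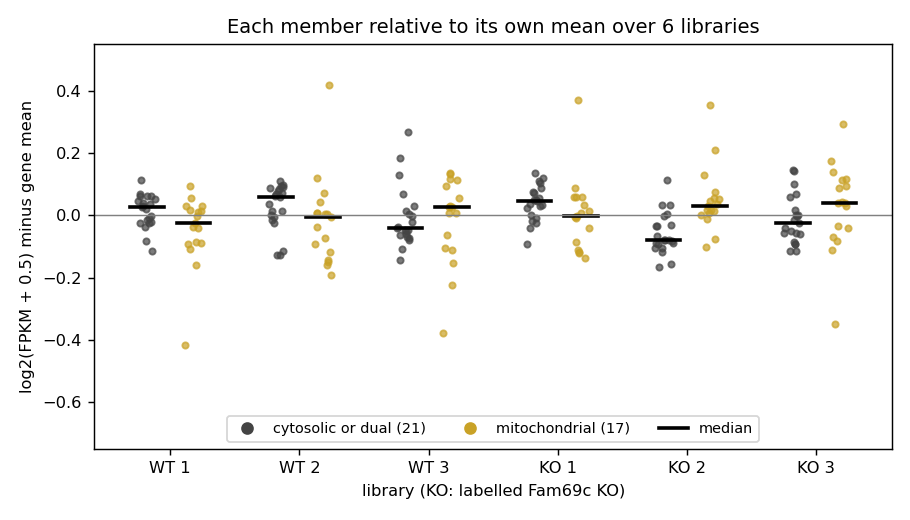
Log2(FPKM + 0.5) of each member minus its own mean over 6 libraries, for 21 cytosolic and 17 mitochondrial members, with the median of each set as a bar. The mitochondrial bar lies above the cytosolic bar in WT replicate 3 and in replicates 2 and 3 labelled knockout, and below it in the other 3 libraries, and the far points of the mitochondrial set are Lars2.

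Lars2, the mitochondrial leucyl enzyme (chromosome 9, 123366927 to 123462666), varied most between libraries, with a coefficient of variation of 30.1% against a median of 6.04% over the members, and it was singled out after its values were seen. It read 5.99, 11.1 and 6.16 FPKM in WT and 10.7, 10.6 and 6.30 FPKM labelled knockout, so WT replicate 2 and replicates 1 and 2 labelled knockout formed a high set and the other 3 libraries a low one. The lowest of the high set was 1.68 times the highest of the low set. From 2074 to 4020 reads lay behind each value. The highest library was 1.85 times the lowest, whereas the next most variable member, Tars2, reached 1.40 times and the median over the members other than Lars2 was 1.17 times. Its log2 fold change was 0.25 (95% interval -0.41 to 0.91), and it rested on single libraries. Leaving out 1 library at a time gave 0.52 without WT replicate 2 and 0.49 without replicate 3 labelled knockout, and values from 0.11 to 0.14 without each of the other 4. It was 0.0014 without WT replicate 3 and replicate 1 labelled knockout together.

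A ribosomal RNA row, CT010467.1 (chromosome 17, 39846353 to 39848827), which was chosen after its values were seen, split the libraries the same way. It read 167, 659 and 222 FPKM in WT and 543, 559 and 288 FPKM labelled knockout, with a gap of 1.88 times between the same 2 sets. It held from 0.0408% to 0.161% of the reads of a library, and was not tested as a measure of the ribosomal RNA left there. The mitochondrial ribosomal RNA row mt-Rnr2, at 2024, 1899 and 1878 FPKM in WT and 1751, 1816 and 1678 FPKM labelled knockout, did not split the libraries that way. Nor did Gm26917, a long noncoding RNA row, at 4.44, 5.49 and 6.67 FPKM in WT and 5.10, 6.81 and 8.18 FPKM labelled knockout. No local alignment was found by blastn between the 9 GENCODE M21 transcripts of Lars2 and the 2 of CT010467.1, at an E-value limit of 1e-05. The part of ribosomal RNA in the Lars2 values was not tested.

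**Figure D5:**
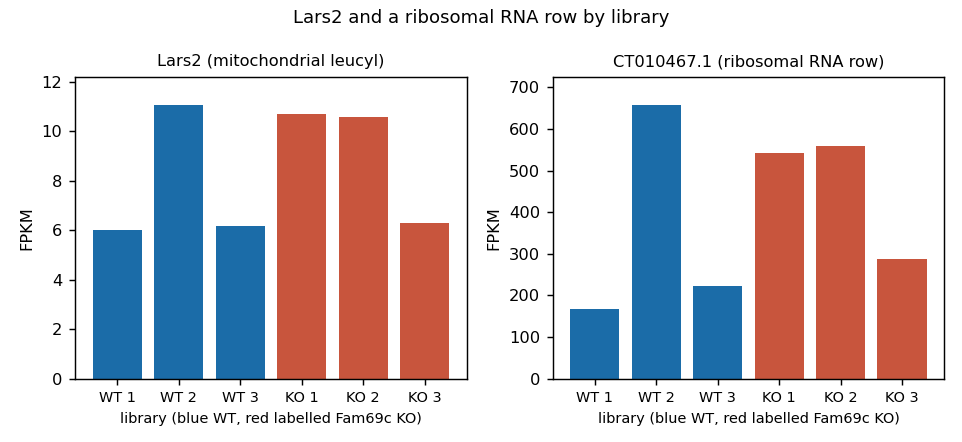
FPKM of Lars2 (left) and of the ribosomal RNA row CT010467.1 (right) in each of the 6 libraries, WT in blue and labelled knockout in red, on axes from 0. Both are high in WT replicate 2 and replicates 1 and 2 labelled knockout, with Lars2 at 10.6 to 11.1 FPKM there and 5.99 to 6.30 FPKM in the others.

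The synthetase genes known as ATF4 targets were read beside the RNA of Atf4. The level of ATF4 protein, which the pathway raises through translation, was not measured. Of these 12 members 4 were above 0 and 8 below, with a median log2 fold change of -0.04, and 0 passed. Among them, Aars read 20.7, 20.6 and 19.3 FPKM in WT and 20.8, 18.9 and 18.7 FPKM labelled knockout, which came to -0.05 in log2 fold change (95% interval -0.20 to 0.09). Of the genes whose promoter windows are shown, Yars gave -0.05, Tars -0.04 and Iars 0.06, each with an interval that includes 0. The 9 cytosolic members not listed as targets had 4 above 0 and 5 below, with a median of -0.02. Atf4 read 51.2, 48.1 and 50.4 FPKM in WT and 47.7, 42.0 and 44.0 FPKM labelled knockout. Its values labelled knockout were all below those in WT, as for 4.7% of all genes tested. Its log2 fold change was -0.16 (95% interval -0.30 to -0.02), with an unadjusted p of 0.029 and an adjusted p of 0.999 (limma), so it did not pass over all genes.

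Other ATF4 targets of amino acid supply and stress numbered 17, of which 15 passed the filter, with 8 above 0, 7 below, 0 past the threshold and a median of 0.02. Phgdh, the first enzyme of serine synthesis, read 22.5, 22.6 and 21.5 FPKM in WT and 26.2, 23.2 and 24.0 FPKM labelled knockout, which came to 0.14 in log2 fold change (95% interval 0.0014 to 0.27; limma adjusted p = 0.999). Its unadjusted p was 0.0482 (limma). Among the 15 tested, 2 had groups apart on the higher side, Phgdh and Sesn2, and 0 on the lower. Over all genes tested 4.17% were apart on the higher side and 4.7% on the lower. Slc7a11, the cystine carrier, read 2.07 ± 0.129 FPKM in WT and 2.31 ± 0.179 FPKM labelled knockout, and Slc3a2, its heavy chain, 31.9 ± 1.96 and 29.7 ± 2.10 FPKM (SD, n = 3 each). The 4 genes of uncharged tRNA sensing, including Atf4, were all below 0 with 0 past the threshold and a median of -0.01.

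In the rest of the pathway 0 genes passed in either direction. The 3 scaffold genes of the multisynthetase complex were below 0, with a median of -0.05, beside 4 of the 8 enzymes of the complex above 0 and a median of -0.0067. Of 4 genes of mitochondrial transamidation and formylation 1 was above 0, and of 5 genes of the selenocysteine route 3 were, led by Sephs2, which makes selenophosphate, at 10.2 ± 0.986 FPKM in WT and 10.96 ± 0.690 FPKM labelled knockout. Of 4 proofreading genes 3 were tested and 2 were above 0, with Prorsd1 at 0.995 ± 0.111 and 1.12 ± 0.142 FPKM. Among 7 elongation factor genes, which deliver charged tRNA to the ribosome or recycle the factor that does, 2 were above 0, with Eef1d at 10.3 ± 0.630 and 9.67 ± 0.447 FPKM. Of 5 genes of tRNA end maturation and export 1 was above 0, with Ssb, the La protein, at 28.6 ± 1.24 and 27.9 ± 1.23 FPKM (SD, n = 3 each). The list medians lay between -0.05 and 0.06.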

How the data were processed

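Cortex RNA of 6 libraries, 3 per genotype, was extracted with Trizol and made into libraries with an Illumina TruSeq kit, per the labels' protocols. Bowtie, with no version, and mm10 are named in the submitters' processing notes. For the counting program, its use of strand and the annotation release the entry is: not given in the sources used here. The authors deposited FPKM per gene, with gene position and length. For 35 of 38 members position and length equal those of GENCODE M21 with all exons merged. The other 3, Nars, Hars and Lars, have deposited lengths shorter than their merged exons. They are on chromosome 18, where 67.5% of rows keep the M21 start and end, against 98.6% elsewhere. Merged exons lengthen 15 members to over 2 times their longest coding transcript, which lowers their FPKM.

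Values times length were whole multiples of 1 step per library within 0.001 for 100% of values above 0, which gave 30935326 to 35065884 reads per library. Genes whose mean reached 0.5 FPKM were tested with limma 3.58.1 in R 4.3.3 on log2(FPKM + 0.5), with a variance trend, two-sided, with Benjamini-Hochberg adjustment over 15694 genes and a threshold of 0.05. This scale understates the fold changes of low genes. Values with ± are mean and SD. On simulated data 200 of 15694 genes were changed on the log2(FPKM + 0.5) scale in 5 draws. The test recovered 80.0% of 2-fold and 95.8% of 4-fold changes, with 8.2 false calls among 184 calls on average. Changes as small as those estimated for the members were not simulated. Lists are described by counts and medians, with no test over members. Members and lists were chosen with earlier results of these data known. Of the members 37 are named; 1 member and 1 promoter window are not reported here, though counts and medians cover all 38. Values in every library are given for those with groups apart, the 4 smallest p in each direction, the 3 highest and lowest levels, and 10 genes in any case. Alternatives were other pseudocounts, filters, scalings and variance settings, a replicate block, voom, and leaving out libraries. Leaving out a pair of libraries, a striatum covariate and reads per kilobase of coding transcript were added after the data were seen. Transcripts were aligned with blastn 2.17.0.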

Additional observations from a re-analysis of the deposited data

How the results depend on the processing

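Under 20 alternative settings 0 of 38 members passed. Their smallest adjusted p was 0.231 (limma), for Hars at a log2 fold change of -0.24, in a fit without the pair of WT replicate 3 and replicate 1 labelled knockout, which was added after the data were seen. That fit called 1 gene in all. Of the members 19 kept the sign of their log2 fold change under all 20 settings, and the 19 that turned did so between -0.08 and 0.04. The cause of these turns was not tested, beyond the fewer libraries where some were left out.

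Genes at an unadjusted p under 0.05 numbered 599 (0 members), and 1214 with no filter, where more genes were tested, 1420 with sample weights and 2092 without that pair. Leaving out 1 library gave 426 to 1023, with 901 without replicate 1 labelled knockout and 1023 without WT replicate 3. Members under that level numbered 7 without the pair and 2 without replicate 1 labelled knockout. There was 1 each without WT replicate 3, replicate 2 or replicate 3 labelled knockout. There was also 1 each with TPM, quantile normalization, no variance trend, sample weights or the replicate block. Besides the counts above, all genes under that level numbered 837 with the block and 426 without replicate 2 labelled knockout. A count of 1 was not read as a result about the members. The median over members was 0.027 rescaled to TPM and -0.013 without the pair, and leaving out 1 library gave -0.015 to 0.0092, the former without WT replicate 3. The mitochondrial median was 0.091 rescaled to TPM and 0.024 without the pair, and leaving out 1 library gave 0.011 to 0.084.

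In log2 fold change, rescaling to TPM turned Kars to 0.00044, Yars2 to 0.016 and Iars2 to 0.019, and median-ratio size factors turned Iars2 to 0.0026. Quantile normalization turned Nars2 to -0.0018. Sample weights turned Wars to -0.0029, Mars to -0.0034, Lars to -0.046, Yars2 to 0.0037 and Nars2 to -0.0093. With voom, the values were Yars2 0.0088 and Iars2 0.012. Without the pair they were Wars -0.016, Lars -0.074, Vars 0.021, Tarsl2 -0.018, Mars2 -0.036, Cars2 0.031, Nars2 -0.00073 and Sephs2 -0.016.

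Leaving out 1 library at a time spread the log2 fold changes of these cytosolic members over both signs: Wars from -0.0084 to 0.040, Mars from -0.051 to 0.061, Kars from -0.062 to 0.014, Lars from -0.043 to 0.056, Vars from -0.16 to 0.036, Farsa from -0.050 to 0.084, Qars from -0.052 to 0.014 and Tars from -0.083 to 0.00038. It did the same for mitochondrial members, with Hars2 from -0.023 to 0.10, Yars2 from -0.027 to 0.016, Iars2 from -0.021 to 0.036, Vars2 from -0.00071 to 0.15, Pars2 from -0.054 to 0.00037, Fars2 from -0.017 to 0.14, Mars2 from -0.024 to 0.15, Cars2 from -0.070 to 0.026 and Nars2 from -0.022 to 0.038.

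With replicate number as a block 0 genes passed, 837 had an unadjusted p under 0.05. The block leaves the fold changes of this balanced design as they are and alters only their errors. Cars then had an unadjusted p of 0.0437 and an adjusted p of 0.909 (limma). Deviations of same-numbered libraries correlated at 0.08, 0.01 and 0.21 across genes. Across the groups WT replicates 1 and 3 correlated best with the library of their own number. WT replicate 2 correlated best with replicate 1 labelled knockout, at 0.11. With 3 libraries per group these correlations cannot decide whether the numbers pair the libraries, and the labels state no pairing. Depth limits Wars2 and Ears2 most, at 176 to 278 reads in a library.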
